A study of Heterocephalus glaber and Cavia porcellus and Spalacopus cyanus with 7 samples.

Results

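The genes of the proteasome were examined in oocyte RNA-seq libraries of guinea pig and naked mole-rat. They were taken as every gene entry whose symbol, read without regard to case, begins with Psma, Psmb, Psmc, Psmd, Psme, Psmf or Psmg followed by a digit. This gave 49 of 25603 entries in the guinea pig table and 49 of 26623 entries in the naked mole-rat table, with all 49 symbols shared. Of these, 48 encode subunits, activators, an inhibitor or assembly factors, and 1, Psmc3ip, only shares the symbol pattern and encodes a partner of the meiotic recombinases. By role they are 8 alpha and 7 beta subunits of the core particle, 4 immune and thymic beta subunits, 6 ATPases and 3 other subunits of the base, 8 lid subunits, 4 activators, 1 inhibitor, 3 assembly factors of the base and 4 of the core.

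Oocytes that were fully grown or late in growth were collected from the ovaries of females, with no treatment named in any source used here. The 1 guinea pig library pooled oocytes from 3 females, 6 to 9 months old, so guinea pig values have no replicate check and no test was made between the species. The 5 naked mole-rat libraries each came from 1 of 5 females aged 1 to 8 years, and p-values among them measure the spread between these females. The titles of replicates 4 and 5 carry the letter O and those of replicates 2 and 3 the letter Y, with no explanation of either letter. The coruro library, from 1 female aged 2 years, was deposited as counts of 3 Dnmt3 sequences with no proteasome gene and was not used here. No source used here gives a strain or genotype.

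The proteasome degrades proteins tagged with ubiquitin. Its core particle is a stack of rings: alpha subunits form the outer rings and the gate, and beta subunits form the inner rings, where Psmb5, Psmb6 and Psmb7 carry the peptidase activities. The regulatory particle recognises ubiquitin and feeds substrates in; its base holds a ring of ATPases that unfold them, and its lid holds Psmd14, the enzyme that removes the ubiquitin chain. In cells exposed to interferon, the catalytic subunits can be replaced by the immune subunits Psmb8, Psmb9 and Psmb10, and other caps such as the Psme activators can take the place of the regulatory particle. Mammalian oocytes store proteasomes, and protein degradation by the proteasome is needed for meiosis to proceed.

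Counts assigned to genes totalled 24515642 in the guinea pig library and 13512223 to 29561451 in the naked mole-rat libraries. Levels are given in CPM, counts per 1000000 counts of the library. CPM still holds the effect of transcript length, which no source used here gives, so levels were compared between libraries and not between genes. A count of 0 allows up to 3 counts, which is 0.122 CPM in guinea pig, 0.222 CPM in naked mole-rat replicate 1 and 0.101 CPM in replicate 5; these limits and the intervals below cover counting error only. Of the listed oocyte markers, 17 of 18 with an entry reached 1 CPM in guinea pig and 17 of 19 did so in every naked mole-rat library. Per the methods, the surrounding cumulus cells were stripped from the oocytes with a fine pipette and the oocytes were then washed. Replicate 1, deposited in a table of its own, stood apart from the other naked mole-rat libraries. Its 19 granulosa markers summed to 6902 CPM against 1034 to 2111 CPM in replicates 2 to 5, its 10 stroma markers to 231 against 12.2 to 48.4 CPM, its 10 immune cell markers to 114 against 7.0 to 26.3 CPM, its 8 endothelial markers to 107 against 115 to 279 CPM, and its 19 oocyte markers to 5266 against 9846 to 11936 CPM. The class II chain gene Cd74 carried most of that immune sum, which without it was 15.2 against 4.60 to 7.60 CPM. Has2 and Nr5a2, at 454 and 248 CPM, were large parts of the granulosa sum of 1034 CPM in replicate 2. Has2 was lowest in replicate 1, at 130 CPM against 227 to 464 CPM in replicates 2 to 5, and had 1.14 CPM in guinea pig. Tek and Flt1 carried most of the endothelial sum in every library, with 38.3 and 47.1 CPM in replicate 1. Of the other endothelial markers, Cdh5 and Egfl7 were highest in replicate 1, and Pecam1, Vwf and Kdr were not. Over single entries, replicate 1 was highest for 17 of 19 granulosa, 7 of 10 stroma, 6 of 10 immune and 2 of 8 endothelial markers. No minimum was set for these counts, and the share of all entries without a minimum was not counted. With a mean of at least 1 CPM in replicates 2 to 5, a minimum chosen after seeing the data, replicate 1 was highest for fewer or as many. These were 16 of 18, 7 of 7, 3 of 4 and 0 of 5, against 40.1% of 13791 such entries. None of the granulosa markers had 0 counts in replicate 1, while the stroma gene Lum and the T cell gene Cd3e did. In guinea pig the granulosa, stroma, immune, endothelial and oocyte sums were 824, 393, 13.8, 595 and 10897 CPM. Results that rest on replicate 1 are also given without it.

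In both species the proteasome genes took up a similar share of all counts. Summed over the 48 genes, the level was 3996 CPM in guinea pig and 3963 ± 261 CPM in naked mole-rat (SD, n = 5), with 4322, 3809, 3850, 3690 and 4143 CPM in replicates 1 to 5. The guinea pig sum lay within the naked mole-rat range. Of the 49 genes, 46 reached 1 CPM in guinea pig and 42 reached 1 CPM in every naked mole-rat library. The 7 that did not do so in naked mole-rat were Psma1, Psmg1, Psmg4 and all 4 immune and thymic beta genes, Psmb8, Psmb9, Psmb10 and Psmb11. The 3 under 1 CPM in guinea pig were Psma8, Psmb8 and Psmb11.

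**Figure D1:**
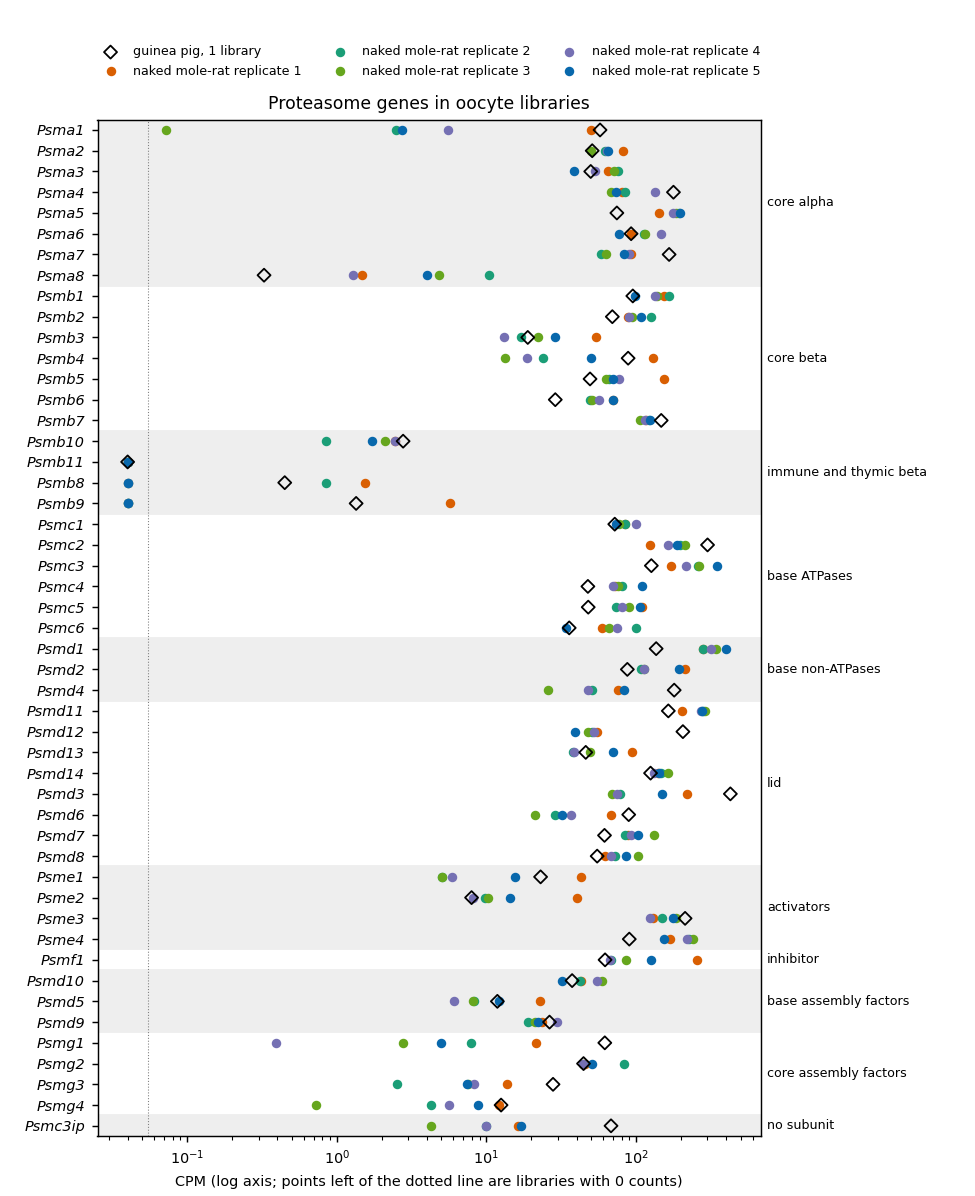
CPM of each of the 49 genes on a log axis, with the guinea pig library as open diamonds and the 5 naked mole-rat libraries as filled points, grouped by role. The libraries spread widely for Psma1, Psma8, Psmb4, Psmb8, Psmb9, Psme1, Psmg1 and Psmg4, with Psma1 at 0.0724 CPM in naked mole-rat replicate 3.

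The levels varied little between the naked mole-rat females for most genes. The coefficient of variation over the 5 libraries had a median of 26.2% for the 47 genes with a mean of at least 1 CPM and of 44.7% for all 14412 such entries, and 31 of the 47 lay below the median of all entries. Without replicate 1, the medians were 23.4% for 46 proteasome genes and 34.9% for 13791 entries. This is a description, since the spread of a gene also depends on its count. The most even genes were Psmb7, the beta subunit with trypsin-like activity, at 6.09%, and the deubiquitinase Psmd14, at 7.98%. Across the 47 genes compared between species, the level in guinea pig and the mean level in naked mole-rat had a Spearman's rho of 0.705, against 0.640 over all 12111 matched genes; genes are not independent replicates, and the points share the length of each transcript.

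Among the alpha subunits of the core, Psma1 and the germ cell form Psma8 varied most. Psma1 had 57.4 CPM in guinea pig (1408 counts), against 49.7, 2.49, 0.0724, 5.49 and 2.71 CPM in naked mole-rat replicates 1 to 5, which were 672, 68, 1, 154 and 80 counts. The guinea pig library and replicate 1 were high and the other 4 libraries low, with no overlap. Replicate 1 was 18.5-fold above the mean of replicates 2 to 5, and the single count of replicate 3 lies under the limit of 3 counts. The mean over naked mole-rat libraries rests on replicate 1, at 12.1 CPM with it and 2.69 CPM without it. The other 6 constitutive alpha genes, Psma2 to Psma7, had at least 38.5 CPM in every library, so the low counts concerned the Psma1 entry alone among them. Psma1 forms part of the alpha ring that surrounds the gate. How reads with several mapping positions were treated is not stated, so copies of the gene elsewhere in the genome cannot be told apart from it. Psma5, another alpha ring subunit, had 74.4 CPM in guinea pig, against 141, 194.5, 184, 176 and 196 CPM, and its lowest naked mole-rat library was 1.90 times the guinea pig level. Of the remaining alpha genes, Psma4 and Psma7 were above every naked mole-rat library in guinea pig, at 178 and 166 CPM, and Psma2, Psma3 and Psma6 lay within the naked mole-rat range.

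Psma8, which in mouse replaces Psma7 in the proteasomes of spermatocytes, had 0.326 CPM in guinea pig (8 counts, 95% exact Poisson interval 0.141 to 0.643 CPM). In naked mole-rat it had 1.48, 10.4, 4.85, 1.28 and 3.99 CPM in replicates 1 to 5. Every naked mole-rat library was above the guinea pig library, and the lowest was 3.93 times its level. Relative to the counts of Psma7, those of Psma8 came to 0.196% in guinea pig (95% exact interval 0.0847 to 0.387%) and to 1.60, 18, 7.75, 1.44 and 4.80% in naked mole-rat replicates 1 to 5. Replicate 2 was highest and replicates 1 and 4 lowest, so the ratio differed more than 10-fold between females of one species. A ratio of counts holds the lengths of both transcripts.

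Among the beta subunits of the core, Psmb3, Psmb4 and Psmb5 were over 2-fold higher in replicate 1 than in the mean of the other naked mole-rat libraries. Replicate 1 was at least 2 times that mean for 14 of 47 proteasome genes, beside 33.5% of 14412 entries. Psmb4 had 88.5 CPM in guinea pig, against 129, 23.8, 13.4, 18.5 and 50.2 CPM in naked mole-rat replicates 1 to 5. Psmb3, like Psmb4 a structural subunit, had 18.9 CPM in guinea pig, against 53.9, 17.1, 22, 13.1 and 28.8 CPM. In both genes replicate 1 was highest and replicate 5 second, and guinea pig lay within the naked mole-rat range. Psmb5, the subunit with chymotrypsin-like activity, had 49.2 CPM in guinea pig, against 154, 66.2, 62.7, 76.9 and 69.7 CPM. Its replicates 2 to 5 lay close together and replicate 1 stood alone. Psmb6, with caspase-like activity, had 28.8 CPM in guinea pig, against 70.6, 49.5, 50.9, 56.5 and 69.8 CPM in naked mole-rat. Psmb7 had 147 CPM in guinea pig, against 116, 122, 106, 114 and 123 CPM. Psmb1, a structural beta subunit, had 95.1 CPM in guinea pig, against 153, 165, 138, 133 and 99.05 CPM in naked mole-rat. Guinea pig was thus below every naked mole-rat library for Psmb1, Psmb2, Psmb5 and Psmb6 and above every one for Psmb7, in each case by less than 2-fold of the nearest library.

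The immune beta genes had few or no counts in most libraries. Psmb8 had 11 counts in guinea pig (0.449 CPM), against 21, 23, 0, 0 and 0 counts in naked mole-rat replicates 1 to 5, or 1.55 and 0.843 CPM in the first 2 of them. Psmb9 had 33 counts in guinea pig (1.35 CPM, 95% exact Poisson interval 0.927 to 1.89), against 77 counts in replicate 1 (5.70 CPM) and 0 in each of replicates 2 to 5. Set against 3 counts over those 4 libraries together, replicate 1 was 187-fold higher. This value allows for the 0 counts only and leaves out the counting error of the 77 counts. Psmb10 was the one immune gene with counts in every library, at 2.77 CPM in guinea pig, against 2.44, 0.843, 2.1, 2.46 and 1.73 CPM in naked mole-rat. Psmb11, the beta subunit of thymic cortical cells, had 0 counts in all 6 libraries.

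Each immune subunit takes the place of one constitutive subunit, so its counts were also set against those of its counterpart. Psmb8 came to 0.911% of the counts of Psmb5 in guinea pig (95% exact interval 0.454 to 1.64%) and to 1.01, 1.27, 0, 0 and 0% in naked mole-rat replicates 1 to 5, where 0 counts allow up to 0.346, 0.139 and 0.146% in replicates 3, 4 and 5. Psmb9 came to 4.67% of Psmb6 in guinea pig (3.19 to 6.62%) and to 8.07% in replicate 1 and 0% in the others. Psmb10 came to 1.88% of Psmb7 in guinea pig (1.46 to 2.39%) and to 1.67 ± 0.625% in naked mole-rat (SD, n = 5). The naked mole-rat mean of the Psmb9 ratio rests on replicate 1, at 0% without it and 1.61% with it, and the mean sum of the 4 immune and thymic genes was 1.99 CPM without replicate 1 and 3.53 CPM with it. Every such ratio was under 10% in every library. These values are of mRNA and of unequal transcripts and give no proportion of assembled particles.

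Most of the listed genes for interferon response and antigen processing were also highest in replicate 1. Their sum was 367 CPM in guinea pig, and 431 CPM in naked mole-rat replicate 1 against 221 to 272 CPM in replicates 2 to 5. Without Cd74, which is also in the immune cell list, it was 360 CPM in guinea pig, and 333 CPM in replicate 1 against 220 to 261 CPM. Of 14 such genes with a naked mole-rat entry, 10 were highest in replicate 1. No minimum was set for this count, and the share of all entries without a minimum was not counted. Of the 9 with a mean of at least 1 CPM in replicates 2 to 5, a minimum chosen after seeing the data that does not use replicate 1, 6 were highest there and 1 was lowest, against 40.1% and 25.4% of 13791 such entries. The median log2 ratio of replicate 1 to the mean of the other libraries was 2.59 for these 9 genes and 0.14 for all such entries. Tap1, the peptide transporter subunit, had 1.75 CPM in guinea pig, against 17.6, 0, 0.652, 1.03 and 0.643 CPM in naked mole-rat replicates 1 to 5. Its mean in replicates 2 to 5 was 0.582 CPM, so it was not among the 9. Irf1, a transcription factor of the interferon response, was no higher in replicate 1, with 107 CPM in guinea pig, against 81.5, 96.6, 55.1, 107 and 112 CPM. In the RefSeq assembly H.glaber_assembly_v1.0, in which all 49 symbols were found, Tap1 is the 1 entry between Psmb8 and Psmb9. The sums of the granulosa, stroma and immune cell markers were highest in the same library. That of the endothelial markers, carried mostly by Tek and Flt1, was lowest there. The part of such cells in these values was not tested. In RNA of pooled oocytes, fewer cells of a type and less RNA per cell cannot be told apart.

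**Figure D2:**
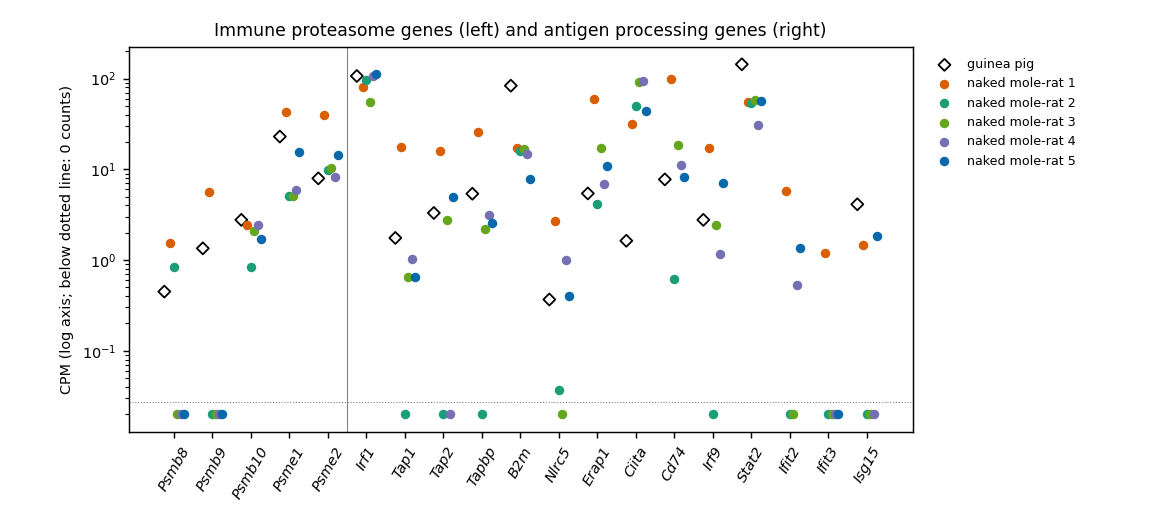
CPM on a log axis of the immune beta genes and interferon-linked activators, left of the line, and of the 14 listed interferon and antigen processing genes with a naked mole-rat entry, right of it, with guinea pig as open diamonds (none for Ifit2 and Ifit3, which have no guinea pig entry), naked mole-rat replicates as filled points and points below the dotted line at 0 counts. Replicate 1 is highest of the naked mole-rat libraries for Psmb8, Psmb9, Psme1, Psme2 and Tap1, and not for Irf1.

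Among the activators, Psme1 and Psme2 differed more between all 5 naked mole-rat libraries than Psme3 and Psme4. Their coefficients of variation were 109% and 81.1%, against 18% and 18.5%. The wide spread of Psme2 rests on replicate 1. In replicates 2 to 5, Psme1 ran from 5.02 to 15.4 CPM and Psme2 from 8.17 to 14.3 CPM. Over the same libraries Psme3 ran from 123 to 186 CPM and Psme4 from 154 to 239 CPM. Psme1 and Psme2, whose products form one ring-shaped cap and are induced by interferon, had 23.0 and 7.95 CPM in guinea pig. Psme1 had 42.7, 5.02, 5.07, 5.88 and 15.4 CPM in naked mole-rat replicates 1 to 5. Psme2 had 40.2, 9.79, 10.3, 8.17 and 14.3 CPM. Both were highest in replicate 1 and second in replicate 5, and replicate 1 was 5.44-fold and 3.78-fold above the mean of the others. In the RefSeq assembly only Emc9 lies between these 2 genes. Psme3, the activator of nuclear proteasomes, had 213 CPM in guinea pig, against 130, 150, 186, 123 and 177 CPM in naked mole-rat. Psme4, a large single-chain activator, had 90.1 CPM in guinea pig, against 170, 227, 239, 218 and 154 CPM. Guinea pig lay above all 5 naked mole-rat libraries for Psme3 and below all 5 for Psme4, with log2 ratios to their mean of 0.47 and -1.16.

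Psmf1, which encodes an inhibitor of the core particle that also binds it as a regulator, had 62.0 CPM in guinea pig. In naked mole-rat it had 256, 68.1, 86.2, 66.5 and 125 CPM in replicates 1 to 5, with replicate 1 highest and replicate 5 second. Guinea pig was just below the lowest of these libraries. The naked mole-rat mean was 120 ± 79.2 CPM (SD, n = 5), and 86.4 CPM without replicate 1.

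The 6 ATPases of the base were measured at 34.0 CPM or more in every library. Summed, they had 630 CPM in guinea pig and 752 ± 92.9 CPM in naked mole-rat (SD, n = 5). Guinea pig was below every naked mole-rat library for Psmc1, Psmc3, Psmc4 and Psmc5, within their range for Psmc6 and above it for Psmc2. Psmc3 had 126 CPM in guinea pig, against 171, 258, 264, 215 and 347 CPM in naked mole-rat replicates 1 to 5, and was lowest of these in replicate 1. Psmc2 had 300.3 CPM in guinea pig, against 123, 196, 213, 162 and 188 CPM. Of the ATPases, Psmc6 varied most within naked mole-rat, with 35.7 CPM in guinea pig, against 59.3, 100.6, 65.7, 74.7 and 34.0 CPM. It was highest in replicate 2 and lowest in replicate 5, so its order of libraries differed from that of Psmc3.

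Of the other base subunits, Psmd1 and Psmd4 differed between the species in opposite directions. Psmd1, a scaffold of the base, had 136 CPM in guinea pig, against 282, 281, 340.5, 316 and 398 CPM in naked mole-rat replicates 1 to 5. The lowest naked mole-rat library was 2.06 times the guinea pig level. Psmd4, a ubiquitin receptor, had 179.8 CPM in guinea pig, against 75.9, 50.4, 25.9, 48.0 and 82.8 CPM, and guinea pig was 2.17 times the highest of these. Psmd2, the other scaffold, had 87.4 CPM in guinea pig, against 213, 108, 112, 112 and 193 CPM, with replicates 1 and 5 high and the other 3 close together.

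The lid genes had the highest sum in guinea pig relative to naked mole-rat among the base ATPases, the other base subunits and the lid, at 1173 CPM against 849 ± 73.8 CPM (SD, n = 5). They made up 29.4% of the summed proteasome CPM in guinea pig and 20.4 to 22.7% in the naked mole-rat libraries. Psmd12 had 206 CPM in guinea pig, against 54.6, 50.8, 47.9, 52.4 and 39.2 CPM in naked mole-rat replicates 1 to 5, the last of these the lowest. Guinea pig was 3.76 times the highest of them. Psmd3 had 427 CPM in guinea pig, against 220, 77.8, 68.9, 74.7 and 148 CPM, and guinea pig was 1.94 times the highest, replicate 1. Psmd6 had 89.3 CPM in guinea pig, against 68.0, 28.7, 21.1, 36.8 and 32.2 CPM. All 3 encode structural lid subunits. The other 5 went the other way or did not separate: guinea pig was below every naked mole-rat library for Psmd7, Psmd8, Psmd11 and Psmd14 and within their range for Psmd13. Psmd11 had 164 CPM in guinea pig, against 203, 279.5, 289, 270.5 and 278 CPM in naked mole-rat, with replicate 1 alone low. Psmd14 had 125 CPM in guinea pig, against 141, 147, 164, 133 and 142 CPM.

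**Figure D3:**
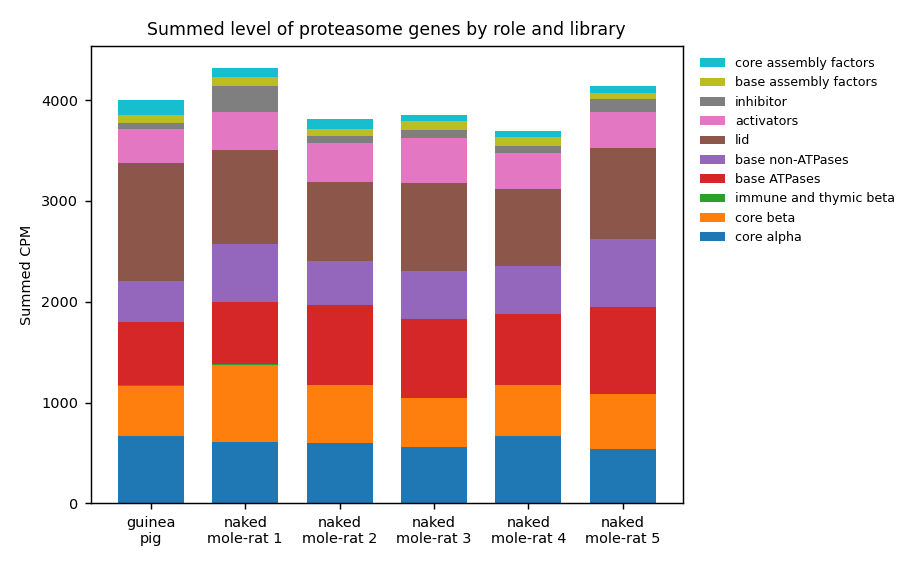
Stacked bars of summed CPM of the 48 genes by role, for the guinea pig library and naked mole-rat replicates 1 to 5. The totals run between 3690 and 4322 CPM, the lid takes a larger part of the guinea pig bar, and the inhibitor and core beta parts are largest in naked mole-rat replicate 1.

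The 4 assembly factors of the core summed to 147 CPM in guinea pig and 75.1 ± 19.5 CPM in naked mole-rat, and the 3 of the base to 75.6 CPM and 80.8 ± 12 CPM (SD, n = 5). Psmg1 had 61.8 CPM in guinea pig, against 21.3, 7.84, 2.75, 0.392 and 4.94 CPM in naked mole-rat replicates 1 to 5. Replicate 4 had 11 counts, and guinea pig was 2.90 times the highest library, replicate 1. Psmg3 had 27.9 CPM in guinea pig, against 13.7, 2.53, 7.53, 8.24 and 7.44 CPM, and was 2.03 times the highest. Psmg1 and Psmg2 form one pair and Psmg3 and Psmg4 another, and both pairs help to build the alpha ring. Psmg2 did not follow its partner, with 44.5 CPM in guinea pig, against 45.5, 83.2, 43.9, 44.2 and 50.6 CPM. Psmg4 had 12.5 CPM in guinea pig, against 12.1, 4.25, 0.724, 5.60 and 8.76 CPM, so that guinea pig lay just above replicate 1. Of the base factors, Psmd10 had 37.4 CPM in guinea pig, against 43.2, 42.1, 59.3, 54.6 and 31.8 CPM. Psmd5 had 11.8 CPM in guinea pig, against 22.8, 8.21, 8.18, 6.10 and 12.1 CPM. For both, and for Psmd9, guinea pig lay within the naked mole-rat range.

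Psmc3ip, which is no proteasome subunit, had 68.0 CPM in guinea pig, against 16.2, 9.90, 4.27, 9.91 and 16.9 CPM in naked mole-rat replicates 1 to 5. Its product works with Mnd1 in the strand invasion step of meiotic recombination. Guinea pig was 4.01 times the highest naked mole-rat library.

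Over all proteasome genes, few differed between the species beyond the spread of the naked mole-rat females by 2-fold. A gene was called higher in guinea pig where its CPM was at least 2 times that of the highest naked mole-rat library and lower where it was at most 1/2 of the lowest, among genes for which the guinea pig CPM and the naked mole-rat mean averaged at least 1 CPM. With Psmb8 and Psmb11 under this minimum, 47 genes were compared. Of these, 5 were higher, Psmc3ip, Psmd12, Psmg1, Psmd4 and Psmg3, and 2 were lower, Psma8 and Psmd1. Psma8, at 0.326 CPM in guinea pig against a naked mole-rat mean of 4.41 CPM, reached the minimum of 1 CPM only through naked mole-rat. It could therefore not have been called higher. Over all 12111 genes matched by symbol, 16.9% were higher and 16.6% lower. Without Psmc3ip, 4 of 46 subunits and factors were higher and 2 lower, which is 8.70% and 4.35%. Without a fold requirement, 15 of the 47 lay above all 5 naked mole-rat libraries, 19 below and 13 within, against 33.3% above and 29.7% below over all matched genes. The median log2 ratio of guinea pig to the naked mole-rat mean was -0.26 for the 47 genes and -0.09 for all 12111. Without replicate 1, Psma1, Psmd3 and Psmd6 also met the rule for higher and Psma5 that for lower, which gave 8 and 3 genes. The shares of all matched genes called without replicate 1 were not counted, so these 2 numbers have no background beside them. With 1 guinea pig library, species cannot be told apart from library, genome assembly or the length of the annotated transcripts.

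**Figure D4:**
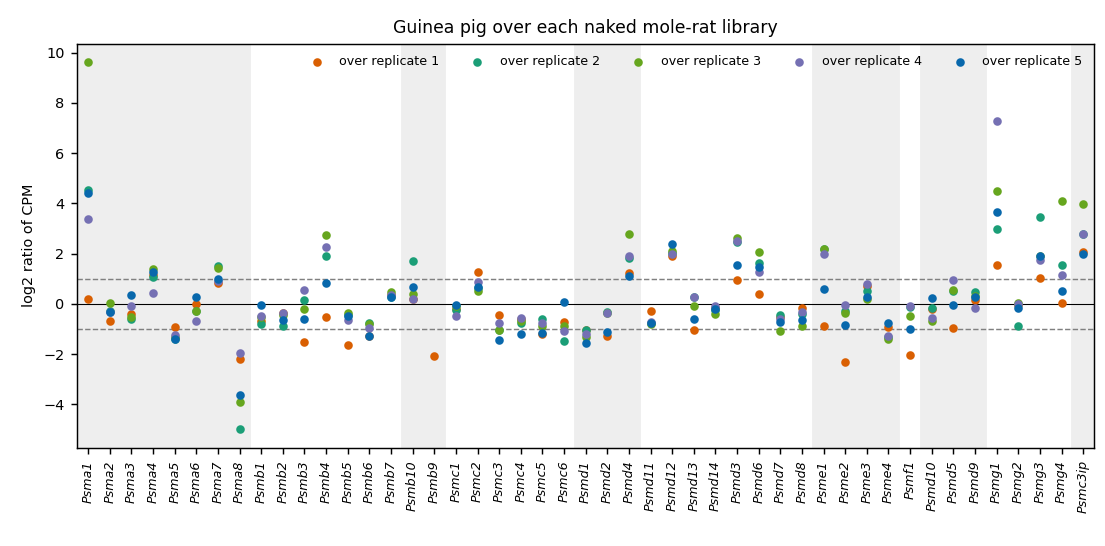
Log2 ratio of guinea pig CPM to the CPM of each naked mole-rat library for the 47 genes compared, ordered by role, with dashed lines at 2-fold and no point where the naked mole-rat library had 0 counts. All 5 points lie beyond the upper line for Psmd4, Psmd12, Psmg1, Psmg3 and Psmc3ip and beyond the lower line for Psma8 and Psmd1.

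Within naked mole-rat, the share of proteasome genes highest in replicate 1 by CPM was close to that of all entries. Of the 47 genes tested, 21 (44.7%) were above every other library in replicate 1 and 6 (12.8%) below, against 42.9% and 24.3% of 14412 entries. Psmb9 reached the mean of 1 CPM through replicate 1 alone. With a mean of at least 1 CPM in replicates 2 to 5, a minimum chosen after seeing the data, 20 of 46 were above and 6 below, against 40.1% and 25.4% of 13791 entries. The median log2 ratio of replicate 1 to the mean of replicates 2 to 5 was 0.20 for the proteasome genes and 0.24 for all entries. On totals scaled by TMM, a normalization to the bulk of genes, the split of 46 genes tested turned to 14 above and 18 below, against 34.9% and 33.6% of all entries, and the medians moved to -0.16 and -0.13. The 14 genes above on both scales were Psma1, Psmb3, Psmb4, Psmb5, Psmd3, Psmd6, Psmd13, Psmd5, Psme1, Psme2, Psmf1, Psmg1, Psmg3 and Psmg4. The 6 genes below every other library by CPM were Psma5, Psmb2, Psmc2, Psmc3, Psmd8 and Psmd11, with log2 ratios of -0.41, -0.23, -0.62, -0.67, -0.40 and -0.46, and all 6 were below on the TMM scale too. In replicates 2, 3, 4 and 5, the genes above every other library numbered 6, 8, 5 and 7, against 11.5%, 14.4%, 13.9% and 17.3% of all entries, and those below numbered 11, 12, 9 and 8, against 20.2%, 24.3%, 13.2% and 13.8%. In 13 of the 21 genes that were highest in replicate 1, replicate 5 was second, against 58.9% of the 6188 entries highest in replicate 1. Replicate 5 had the second highest sum of granulosa markers, 2111 CPM, and the part of other ovarian cells in these differences was not tested.

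**Figure D5:**
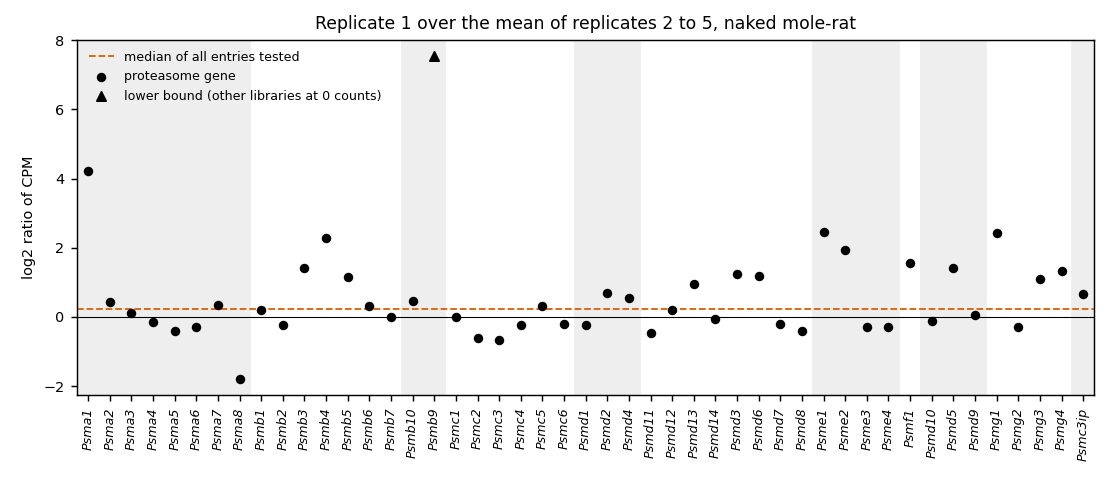
Log2 ratio of CPM in naked mole-rat replicate 1 to the mean CPM of replicates 2 to 5 for 47 proteasome genes, ordered by role, with the median of all 14412 entries as a dashed line at 0.24. The triangle for Psmb9 is a lower bound that allows for the 0 counts of the other libraries only. Most ATPase and lid genes lie near or under the line, while Psma1, Psmb4, Psme1, Psmg1 and Psmf1 lie well above it. The lid genes Psmd3, Psmd6 and Psmd13 also lie above it, at 1.25, 1.20 and 0.95.

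No proteasome gene passed the test between the libraries with the letters O and Y. In edgeR's quasi-likelihood test on replicates 4 and 5 against replicates 2 and 3, 0 of 46 proteasome genes passed an adjusted p of 0.05 (Benjamini-Hochberg over all entries), and 0 of 15079 entries did so, which is 0.0% in each direction. At an unadjusted p under 0.05 there were 0 proteasome genes and 707 entries. DESeq2 called 68 entries higher and 3 lower, and 0 proteasome genes. The fitted log2 fold changes of the proteasome genes, O over Y, had a median of 0.01, and 24 were positive and 22 negative. The lowest unadjusted p was that of Psma3, which had 53.3 and 38.5 CPM in the O libraries, against 75.9 and 70.7 CPM in the Y libraries, with a log2 fold change of -0.78 ± 0.39 (SE) and an adjusted p of 1.00 in edgeR. Psma8 had a log2 fold change of -1.70 ± 1.06 (SE). With 2 libraries a letter, a p that missed the threshold does not show equal levels. The granulosa markers summed to 1261 and 2111 CPM in the O libraries, against 1034 and 1218 CPM in the Y libraries. In edgeR, 0 of 18 granulosa markers passed the adjusted threshold. The part of such cells in the comparison of the letters was not tested.

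Genes that work with the proteasome were measured alongside. Of 31 listed symbols, 25 had a naked mole-rat entry and all 25 reached 1 CPM in every library, and 27 of 27 with an entry did so in guinea pig. Sem1, a small lid subunit outside the symbol pattern, had 39.0 CPM in guinea pig and was not analysed here in naked mole-rat. Akirin2, which brings proteasomes into the nucleus, had 316 CPM in guinea pig, against 225, 650.0, 704, 819 and 418 CPM in naked mole-rat replicates 1 to 5. Zfand5, a proteasome-binding zinc finger protein, had 830.0 CPM in guinea pig, against 402, 1090, 1048, 969 and 637 CPM. Both were lowest in replicate 1 and second lowest in replicate 5 of the naked mole-rat libraries. Nfe2l1, a transcription factor of proteasome genes, had 312 CPM in guinea pig, against 251, 68.8, 65.5, 82.3 and 115 CPM, and Vcp, the ATPase that extracts ubiquitinated proteins, had 161 CPM, against 314, 41.4, 66.3, 57.1 and 85.5 CPM. These were highest in replicate 1 and second in replicate 5.

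By the rule for the species, 3 of the 25 genes were higher in guinea pig and 1 was lower, beside the same 16.9% and 16.6% of all matched genes. Uba1, the ubiquitin-activating enzyme, had 568 CPM in guinea pig, against 217, 142, 108, 141 and 162 CPM in naked mole-rat. Ube3c, a proteasome-associated ubiquitin ligase, had 390.1 CPM, against 103, 65.9, 56.0, 73.1 and 93.2 CPM, and Ngly1, which takes part in the activation of Nfe2l1, had 164 CPM, against 59.7, 40.8, 74.4, 51.2 and 25.2 CPM. The shuttle factor gene Ubqln1 had 114 CPM in guinea pig, against 297, 432, 355, 316 and 243 CPM. The receptor Adrm1 and the deubiquitinases Usp14 and Uchl5 were not called. In replicate 1, 10 of the 25 were above and 5 below every other naked mole-rat library, beside 42.9% and 24.3% of all entries. By edgeR, 0 of the 25 passed the test between the letters or had an unadjusted p under 0.05.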

How the data were processed

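Per the methods, the authors mapped reads with HISAT2 2.0.5 to Cavpor3.0 (guinea pig) and HetGla_female_1.0 (naked mole-rat), trimming those of naked mole-rat with Trim Galore 0.6.2, and the submitters' notes give versions 2.1.0 and 0.6.1. Raw counts per gene, made by the authors in SeqMonk 1.47.2, were deposited. Libraries were directional and depleted of ribosomal RNA. The counting options and annotation are not stated. CPM used plain column totals. Genes were matched between species by symbols unique in both tables. O and Y were compared with edgeR 4.0.16 in R 4.3.3 (TMM, filterByExpr, quasi-likelihood test) and with DESeq2 1.42.0. On simulated counts of 15079 genes, edgeR missed most small changes. It recovered 2 of 67 genes changed 2-fold, 15 of 67 changed 4-fold and 43 of 66 changed 8-fold, with 5 false calls. No pair of naked mole-rat libraries was a duplicate (chi-square per entry 46.0 to 422). Members, gene lists and rules were chosen with earlier results of these data known. Every symbol of the pattern is accounted for; immune, activator, inhibitor and germ cell forms, extremes of a class and called genes are named with values, and genes of the other lists were named after their values were seen. Of the other lists, 2 genes are not reported here and stand in no list result. Alternatives changed totals, filters, thresholds, tools and libraries. No lengths, promoters or protein sequences were used. Coruro counts were not used.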

Additional observations from a re-analysis of the deposited data

Results flagged for a closer look

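For each measure over the 5 naked mole-rat libraries, the value in parentheses is the distance of the most extreme library from the next one as a share of the full range, given where it exceeded 0.71. Of 48 proteasome genes with differing values 9 stood apart, 5 of them as highest in replicate 1, and of all 97 measures tested 23 stood apart. Chance gives about 5% for independent values, and these genes are not independent. The share over all naked mole-rat entries was not counted, so these counts do not set proteasome genes apart from other genes. Replicate 1 was above every other library for 42.9% of the 14412 entries with a mean of at least 1 CPM.

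Replicate 1 stood apart as highest for Psmb9 (1, since the others had 0 counts), Psma1 (0.891), Psmb5 (0.845), Psme2 (0.809) and Psme1 (0.724), and for the sum of the immune and thymic beta genes (0.903). It stood apart as lowest for the lid gene Psmd11 (0.783), at 203 CPM against 270.5 to 289 CPM in replicates 2 to 5. Other libraries stood highest for Psmg2 (0.830, replicate 2), Psma4 (0.750, replicate 4) and Psmc4 (0.738, replicate 5).

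Among genes that work with the proteasome, replicate 1 stood apart as highest for Vcp (0.838), Paaf1 (0.769) and Nfe2l1 (0.734), and replicate 5 as lowest for Uba6 (0.818) and the core maturation factor Pomp (0.791). Among interferon and antigen processing genes, replicate 1 stood apart as highest for Ifit3 (1, since the others had 0 counts), Tap1 (0.941), Tapbp (0.880), Cd74 (0.816), Ifit2 (0.766) and Erap1 (0.762), replicate 5 as lowest for B2m (0.754) and replicate 4 as lowest for Stat2 (0.855).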

How the results depend on the processing

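The summed level of 3963 CPM in naked mole-rat was 3873 to 4031 CPM when 1 replicate was left out and 4185 CPM with totals that omit the 10 most abundant entries. Leaving out 1 of 5 libraries cannot move a mean by 1 SD, so these values say little about stability. Some means still moved by over 1.5-fold: the Psmb9 ratio was 0% without replicate 1, against 1.61% with all 5, the sum of the immune and thymic beta genes 1.99 CPM without replicate 1, against 3.53 CPM, and the Psmb8 ratio 0.252% without replicate 2, against 0.456%. The genes at 1 CPM in every library numbered 42 to 44 when 1 replicate was left out, and 36 reached 10 CPM. In replicate 1, the genes below every other library numbered 18 with TMM-scaled totals and 6 to 10 when 1 of the other replicates was left out (10 without replicate 4). Between the letters, entries called higher and lower numbered 64 and 2 with no filter, 171 and 2 with replicate 1 added to the fit, 68 and 3 with DESeq2, and 3 to 206 and 1 to 355 when 1 replicate was left out (most higher without replicate 3, most lower without replicate 4) and the lone library was assumed to vary like the others; proteasome genes called stayed at 0 under each of these. With the replicate block, from the number after the letter, 56 entries were higher and 0 lower, and 0 proteasome genes were called; the labels do not say that the numbers pair the samples, and the correlation of deviations was 0.0413. Between species, 4-fold beyond the range left 1 gene higher (Psmc3ip) and 0 lower; a minimum of 10 CPM removed Psma8, leaving 1 lower, and median-of-ratios scaling removed Psmd1, leaving 1 lower, and added Psmd3. Leaving out 1 naked mole-rat replicate gave 5 to 8 higher and 2 to 3 lower, with 8 and 3 without replicate 1. The shares of all matched genes under these alternatives were not counted. For genes chosen by this rule, leaving out a library or raising a threshold could not turn the direction of the ratio. Median-of-ratios scaling multiplied the guinea pig levels by only 1.05 and turned none of the 7. The causes were not tested. Sums per kilobase of coding length and the promoter motif search were not run, since no lengths or promoters were used here. Depth limits the immune beta genes, where 3 counts come to 0.222 CPM in replicate 1 and 0.217 CPM in replicate 3, the 2 libraries of lowest depth.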

Other observations

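Among the interferon and antigen processing genes, 3 of 11 compared were higher in guinea pig and 1 was lower by the 2-fold rule, beside 16.9% and 16.6% of all matched genes. B2m, the light chain of class I molecules, had 83.7 CPM in guinea pig, against 17.2, 16.0, 16.7, 14.9 and 7.75 CPM in naked mole-rat replicates 1 to 5. Stat2 had 144 CPM in guinea pig, against 55.5, 53.7, 57.5, 31.1 and 56.7 CPM. Isg15, a ubiquitin-like protein, had 101 counts in guinea pig (4.12 CPM), against 20, 0, 0, 0 and 55 counts in naked mole-rat. Its naked mole-rat mean was 0.668 CPM, so it reached the minimum of 1 CPM only through guinea pig and could not have been called lower. Ciita, the coactivator of class II genes, had 1.63 CPM in guinea pig, against 31.3, 50.1, 90.8, 94.5 and 43.9 CPM, and was lowest of the naked mole-rat libraries in replicate 1. These genes were named after their values were seen.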
